A study of Mus musculus with 10 samples.

Results

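The 10 livers of this series were grouped by a measured value, the log2 intensity of the gene Dbp, and the group with high Dbp was compared with the group with low Dbp across 19935 genes. Livers with a log2 Dbp value above 8 were called Dbp-high and those below 8 were called Dbp-low. The Dbp-high group held 5 of the 10 livers (WT 1, WT 2, NML-KO 1, NML-KO 2 and NML-KO 3) and the Dbp-low group the other 5 (WT 3, WT 4, WT 5, NML-KO 4 and NML-KO 5). The mice were wild type (WT) or knockout for NML (NML-KO), the gene that current annotation names Rrp8, and each liver was taken at 12 weeks of age. Total RNA from whole liver was measured on Affymetrix whole-transcript arrays, 1 array per liver. The labels state no treatment beyond the genotype, and give no strain, sex, time of dissection, feeding state, deletion design or processing batch. Both Dbp groups held livers of each genotype, so genotype was a term in the main fits. The study itself made no comparison by Dbp, and nothing in the labels ties the replicate number to a day or a litter. They do not say outright that each liver came from a different mouse, so any p measures only the spread between these samples.

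Dbp encodes a transcription factor of the PAR bZIP family, which binds D-box elements and is among the most strongly rhythmic transcripts of mouse liver. In the circadian clock, the activator pair of ARNTL and CLOCK binds E-boxes in the promoters of Dbp and of the Per, Cry and Nr1d genes, and the products of the Per and Cry genes then inhibit that pair. NR1D1 and NR1D2 repress Arntl through ROR elements, so that Arntl and Dbp peak at opposite times of day. In liver, the clock and the daily cycle of feeding also drive rhythms in lipid, sterol, bile acid, glucose and haem metabolism, and the genes of those pathways are described here in turn.

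In this and later sentences the 5 values of the Dbp-high livers are in the order WT 1, WT 2, NML-KO 1, NML-KO 2, NML-KO 3, and those of the Dbp-low livers in the order WT 3, WT 4, WT 5, NML-KO 4, NML-KO 5. The log2 intensity of Dbp was 10.23, 9.87, 9.68, 9.71 and 9.71 in the Dbp-high livers and 6.27, 6.58, 6.20, 6.60 and 6.47 in the Dbp-low livers. No liver lay near the dividing value: the lowest Dbp-high liver (NML-KO 1, 9.68) and the highest Dbp-low liver (NML-KO 4, 6.60) were 3.08 apart. Arntl, the partner of CLOCK, ran the other way, at 5.90, 5.87, 5.55, 5.83 and 5.71 in the Dbp-high and 8.10, 8.27, 8.27, 8.22 and 8.10 in the Dbp-low livers. Both markers of the split therefore separated the groups in either genotype. Because the groups were defined by values from these same livers, every difference between them is given as a description. A gene is said to be called where limma's moderated test, with Benjamini-Hochberg adjustment over all 19935 genes, gave an adjusted p below 0.05. That call says only that the groups lay far apart relative to the spread within them, and no p of this contrast is read as a test. Differences are Dbp-high minus Dbp-low on the log2 scale, adjusted for genotype, with the standard error (SE) of the fit over 5 against 5 livers.

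The fit called 2573 of the 19935 genes (12.9%), of which 980 (4.92%) were higher and 1593 (7.99%) lower in the Dbp-high livers. These shares are the background for every list below, and nothing is read from them, since the split was made on the same arrays. Every Dbp-high value exceeded every Dbp-low value for 1005 genes (5.04%), and the reverse order held for 1420 (7.12%). Among called genes, 70 were at least 2-fold higher and 126 at least 2-fold lower, and the median size of the difference was 0.45. Over all genes the median difference was 0.02. The balance of directions moved with the scaling: 38.1% of called genes were higher in the Dbp-high livers with the intensities as deposited, and 49.8% were after quantile normalization. The root mean square distance between arrays had a median of 0.255 over 8 pairs of the same Dbp group and genotype, and 0.270 over 12 pairs of the same Dbp group and different genotype. It was 0.375 over 12 pairs of different Dbp group and the same genotype, and 0.352 over 13 pairs that differed in both.

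Some facts of these livers stand beside all the results. Rrp8, the targeted gene, was between 7.65 and 7.90 in the WT livers and between 6.65 and 7.19 in the NML-KO livers, with no overlap, and its difference between the Dbp groups was -0.05 ± 0.11 (SE). The hepatocyte markers, 9 in number and led by Alb (albumin), had a mean log2 level of 13.65 to 13.70 in the Dbp-high and 13.63 to 13.70 in the Dbp-low livers. Of these 9, 2 were called higher and 0 lower (22.2%). The groups did not overlap for 3 that were higher and 1 that was lower, beside 5.04% and 7.12% of all genes. Alb was among the 3, at 14.52 to 14.59 in the Dbp-high and 14.30 to 14.37 in the Dbp-low livers. Of 14 markers of Kupffer cells, the resident macrophages, 0 were called higher and 4 lower (28.6%), beside 12.9% of all genes. Their mean level ran from 7.50 to 8.35 in the Dbp-high and from 8.15 to 8.91 in the Dbp-low livers, highest in NML-KO 4. The called members were C1qb (-1.25 ± 0.28), Vsig4 (-1.24 ± 0.31), C1qc (-1.02 ± 0.23) and Cd68 (-0.71 ± 0.19). In whole liver, fewer cells of a type and less RNA per cell cannot be told apart. Among 5 measured cholangiocyte markers only Sox9 was called, at -1.13 ± 0.12. The other 4 (Krt7, Krt19, Epcam and Cftr) had differences of 0.06 to 0.08, so the lower mean level of the list, 5.66 to 5.80 against 5.82 to 6.05, came from Sox9. Of 12 sinusoidal endothelial markers, Gpr182 alone was called. The lists for stellate cells, B cells, T and NK cells, neutrophils, erythroid cells, adipocytes and pancreas had no called member. WT 2 stood apart in adipocyte markers, with a mean level of 8.05 against 6.76 to 6.98 in the other livers. The part of these cell markers in the differences below was not tested.

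**Figure D1:**
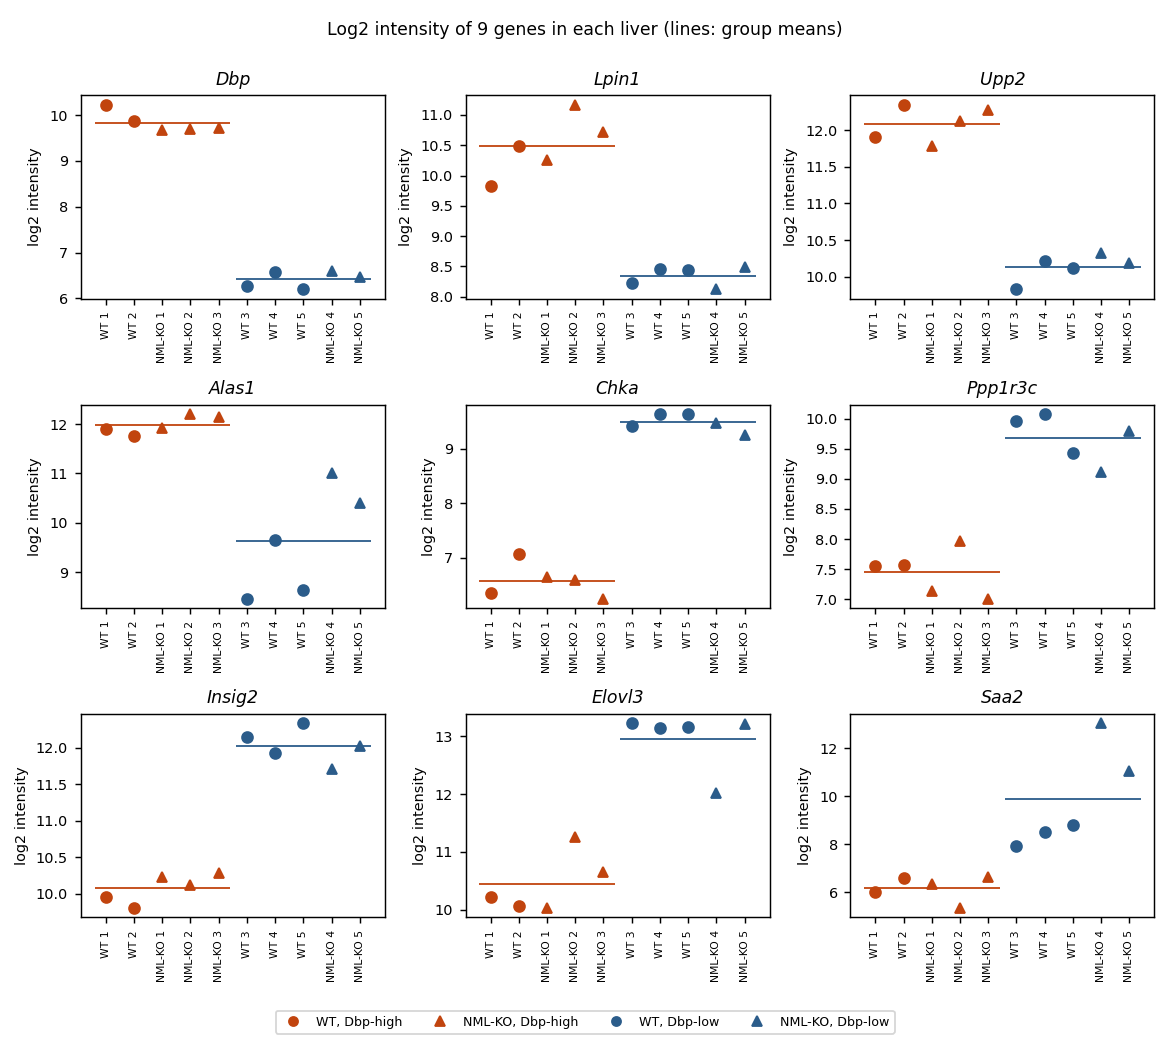
Log2 intensity (vertical axes) of Dbp and 8 genes outside the clock in each of the 10 livers, Dbp-high in red and Dbp-low in blue, circles for WT and triangles for NML-KO, with lines at the group means. The groups do not overlap in any panel, and Saa2 is spread most widely in the Dbp-low livers, from 7.93 to 13.03.

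Outside the clock, lipid and phospholipid genes were among those with the largest differences. Lpin1 encodes lipin 1, the phosphatidic acid phosphatase of triglyceride synthesis that also acts with PPARA in the nucleus. Its log2 intensity was 9.82, 10.48, 10.26, 11.17 and 10.71 in the Dbp-high livers against 8.22, 8.45, 8.45, 8.12 and 8.49 in the Dbp-low livers. The groups were well apart, with a difference of 2.09 ± 0.21 (4.27-fold). Chka, the choline kinase that begins phosphatidylcholine synthesis, was 6.35, 7.07, 6.64, 6.59 and 6.25 in the Dbp-high livers against 9.42, 9.64, 9.64, 9.48 and 9.25 in the Dbp-low livers. This was a 7.30-fold lower level in the Dbp-high livers (-2.87 ± 0.14), and it was almost equal in the genotypes, at -2.86 within WT and -2.88 within NML-KO. Gpcpd1, which breaks down glycerophosphocholine, had the opposite direction to Chka, at 1.87 ± 0.28. Mfsd2a, a transporter of lysophosphatidylcholine, was 9.10, 9.97, 10.10, 10.02 and 9.04 in the Dbp-high livers and 6.0, 6.79, 6.82, 7.69 and 7.80 in the Dbp-low livers. Its difference was 2.49 ± 0.30, and the 2 Dbp-low livers of NML-KO lay above the 3 of WT. Elovl3, which lengthens very long chain fatty acids, was 10.21, 10.07, 10.03, 11.26 and 10.65 against 13.23, 13.14, 13.16, 12.03 and 13.22. It was lower in the Dbp-high livers by 5.68-fold (-2.51 ± 0.31), with NML-KO 4 below the other Dbp-low livers.

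Within the list of fatty acid and triglyceride synthesis, 4 of 22 members were called higher and 2 lower (27.3%), and the list median was -0.03. Beside Lpin1, the higher members were Lpin2, a second lipin (1.16 ± 0.23), Dgat2, the last enzyme of triglyceride synthesis (0.49), and the desaturase Fads2 (0.19). The lower members were Mlxipl, the carbohydrate-responsive transcription factor ChREBP (-0.75 ± 0.07), and the acyltransferase Agpat2 (-0.61). Fasn and Scd1, the enzymes of palmitate and oleate synthesis, had differences of 0.16 and -0.02 and were not called. Lpin1 and Lpin2 thus had values unlike those of Fasn and Scd1 within the same list. Of its 22 members, 13 had a difference below 0, the lowest being -0.93.

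For fatty acid oxidation and targets of PPARA, 7 of 27 members were called higher and 3 lower (37%), with a list median of 0.22. Ppara itself, the nuclear receptor that drives fatty acid oxidation, was 11.13, 10.93, 10.83, 10.88 and 11.12 in the Dbp-high livers and 10.23, 10.02, 10.19, 9.79 and 10.13 in the Dbp-low livers. The 10 values fell into separate ranges, with a difference of 0.93 ± 0.09. Cpt1a, which admits long chain fatty acids to mitochondria, was higher by 0.86 ± 0.11, and Acadl, the long chain acyl-CoA dehydrogenase, by 0.82 ± 0.12. Pdk4, the kinase that shuts off pyruvate dehydrogenase, differed in the other direction at -1.86 ± 0.35, although the groups met in range (6.01, 7.92, 6.15, 6.08 and 6.94 against 8.89, 9.4, 8.58, 7.91 and 8.34). Fgf21, a hormone gene under PPARA, had a difference of -0.10 and was not called.

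Apolipoproteins and lipases had 0 members called higher and 6 of 19 lower (31.6%), with a median of -0.11. Apoc4, an apolipoprotein of triglyceride-rich particles, was lower by 1.60-fold (-0.68 ± 0.09). Apoa4, an apolipoprotein made in intestine and liver, was at -0.81 ± 0.19, a call that was lost without WT 2 (-0.75) or without WT 4 (-0.78). Angptl8, a feeding-induced inhibitor of lipoprotein lipase, was at -1.35 ± 0.33, and its groups overlapped. Its call was lost without any of WT 2, WT 3, WT 4, NML-KO 2, NML-KO 3 or NML-KO 5, with values from -1.58 to -1.10 across the livers left out. Without WT 4 the list had 3 called members.

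**Figure D2:**
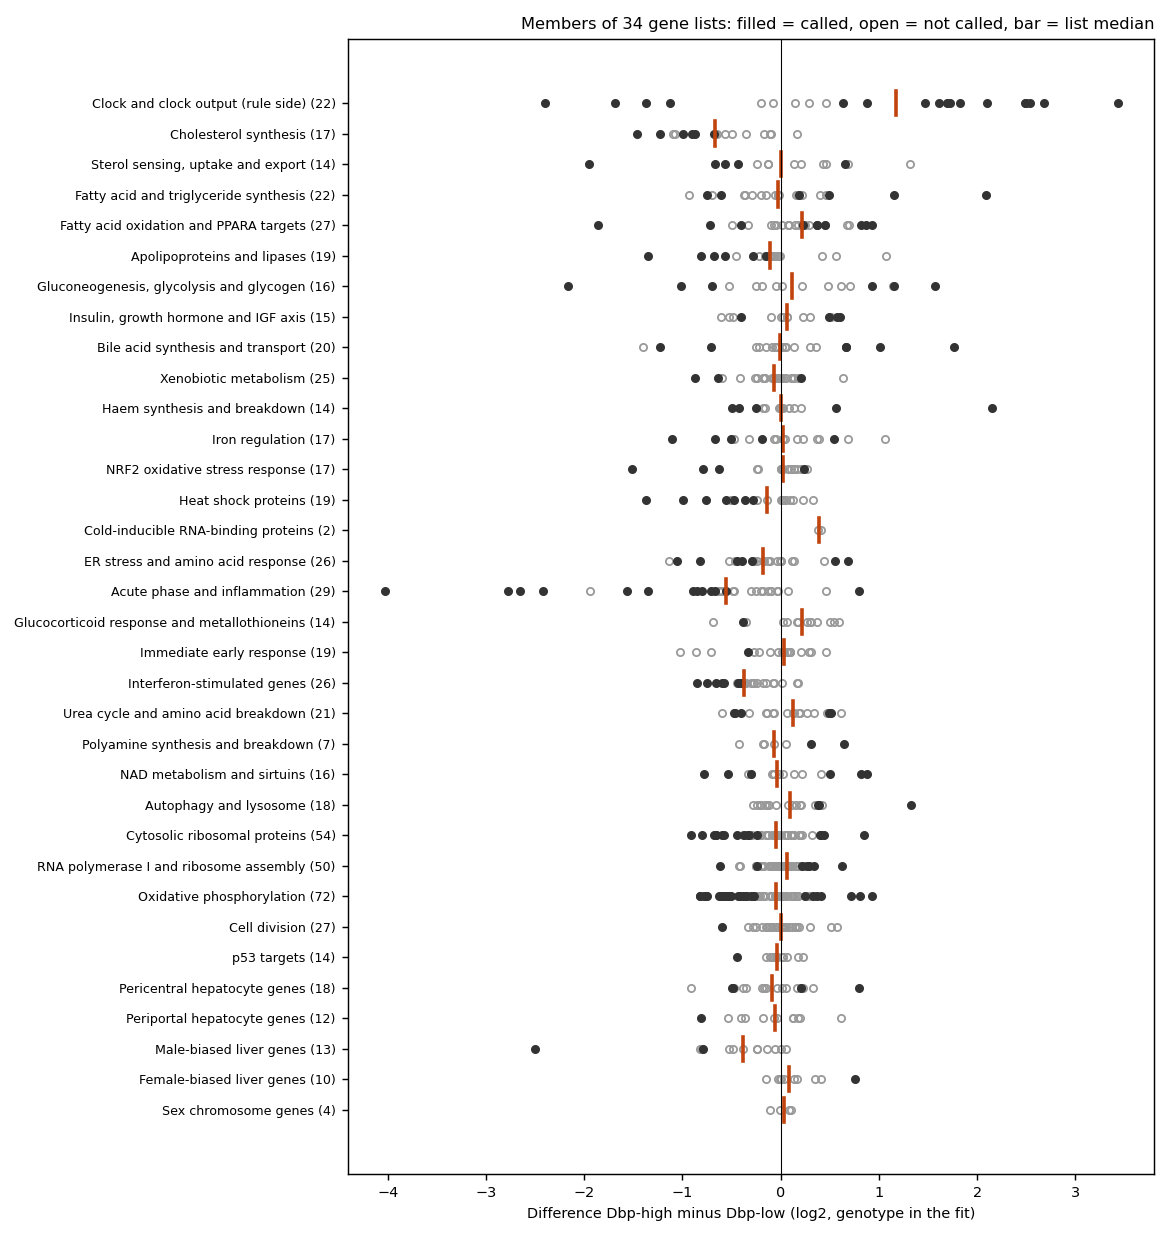
Difference between Dbp-high and Dbp-low livers (log2, horizontal axis) for every measured member of 34 gene lists (rows, number measured in brackets), filled where called and open where not, with a bar at the list median. The clock list, which the rule drew on, has its median at 1.17, and outside it cholesterol synthesis (-0.67) and the acute phase (-0.55) have the lowest medians.

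Sterol genes were lower in the Dbp-high livers at the level of synthesis, while their sensors and transporters varied. In cholesterol synthesis, 16 of 17 measured members had a difference below 0, 6 were called lower and 0 higher (35.3%), and the median was -0.67. Within WT the median was -0.99 and within NML-KO it was -0.36. Sqle, the squalene epoxidase, was 7.82, 7.08, 6.81, 6.88 and 7.63 in the Dbp-high livers and 8.80, 9.67, 9.35, 7.86 and 8.56 in the Dbp-low livers. NML-KO 4 was the lowest of the Dbp-low livers, level with WT 1 of the Dbp-high group, and the difference was -1.46 ± 0.27. Idi1, which isomerises the isoprene unit, was at -1.23 ± 0.30 and Fdps, which joins isoprene units, at -1.0 ± 0.27, both with overlapping groups. The call of Idi1 was lost with WT 1, WT 3, WT 4, WT 5 or NML-KO 5 left out, and that of Fdps with any of these 5, WT 2 or NML-KO 1 left out. The mean level of the list was 9.68 to 10.08 in 4 Dbp-low livers and 8.96 in NML-KO 4, which lay within the Dbp-high range of 8.68 to 9.37. The count of called members rested on few livers: it was 1 without NML-KO 5, 2 without WT 1, WT 4 or WT 5 and 3 without WT 2 or WT 3. With NML-KO 3 left out it was 9, and with NML-KO 4 left out it was 12.

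Insig2, which holds the SREBP precursors in the endoplasmic reticulum when sterols are ample, was 9.96, 9.80, 10.23, 10.12 and 10.28 in the Dbp-high and 12.15, 11.93, 12.33, 11.72 and 12.02 in the Dbp-low livers. It was lower by 3.88-fold (-1.96 ± 0.13) with a wide gap between the groups. Insig1, its paralog and itself an SREBP target, was not called, with a difference of 0.46. Of the 14 members for sterol sensing, uptake and export, 1 was called higher and 4 lower (35.7%), with a median of 0.01. Nr1h3, the oxysterol receptor LXR alpha, was at -0.67 ± 0.09, Srebf2, the regulator of sterol synthesis, at -0.57 and its escort Scap at -0.43. The one member called higher was Stard4, a carrier of cholesterol between membranes, at 0.66 ± 0.08.

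In bile acid synthesis and transport, members differed in both directions. Cyp7a1, the rate-limiting enzyme of bile acid synthesis from cholesterol, was 12.30, 11.24, 12.63, 11.45 and 11.60 in the Dbp-high and 9.24, 11.67, 9.69, 9.58 and 10.30 in the Dbp-low livers. WT 4 had the one Dbp-low value inside the Dbp-high range. The difference was 1.76 ± 0.47, and its call was lost without WT 1, WT 3, WT 5, NML-KO 1, NML-KO 3, NML-KO 4 or NML-KO 5, with values from 1.56 to 2.11. Nr0b2, the corepressor SHP that restrains Cyp7a1, was 8.48, 8.24, 8.03, 7.60 and 8.38 against 10.04, 9.74, 9.49, 8.80 and 9.32. Its groups did not overlap, and it was lower in the Dbp-high livers by 2.34-fold (-1.22 ± 0.18). Of the 20 members of the list, 4 were called higher (Cyp7a1, the uptake transporter Slco1a4 at 1.01 ± 0.25, the FGF coreceptor Klb at 0.66 and the export pump Abcc2 at 0.66) and 2 lower (Nr0b2 and Cyp2c70, at -0.71). Slco1a4 lost its call without WT 3, WT 5, NML-KO 2, NML-KO 3 or NML-KO 5. The count of 6 became 2 without WT 3 or NML-KO 5 and 3 without WT 5. The list median was -0.01, and 30% of its members were called.

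Glucose and glycogen genes had called members in both directions, 3 higher and 3 lower of 16 (37.5%), with a median of 0.11. Ppp1r3c, which brings protein phosphatase 1 to glycogen and so favours glycogen synthesis, was 7.56, 7.57, 7.14, 7.96 and 7.01 in the Dbp-high livers and 9.96, 10.08, 9.42, 9.12 and 9.79 in the Dbp-low livers. It was lower by 4.5-fold (-2.17 ± 0.21). Gys2, the liver glycogen synthase, differed in the opposite direction at 1.15 ± 0.18, as did Pfkfb3, which makes the activator of phosphofructokinase, at 1.57 ± 0.19. Slc37a4, the glucose 6-phosphate transporter, was also higher (0.93 ± 0.21), whereas G6pc, the phosphatase that works with it, was lower (-1.01 ± 0.22), as was Gckr, the inhibitor of glucokinase (-0.70 ± 0.11). Pck1, the enzyme of gluconeogenesis from oxaloacetate, was at 0.61 ± 0.24 and was not called. In the insulin and growth hormone axis, 3 of 15 members were called higher and 1 lower (26.7%), with a median of 0.06. The higher ones were Igfbp2, a carrier of insulin-like growth factors (0.60 ± 0.09), and the insulin-restrained transcription factors Foxo3 (0.58 ± 0.07) and Foxo1 (0.49 ± 0.10). The lower one was Stat5b, the mediator of growth hormone, at -0.41.

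The promoters of the named genes were searched for the elements through which the clock acts, and 4 that hold an E-box are shown because their genes had the largest differences among the holders of one before the start. Each run below holds the 250 bases before the annotated start, on the strand of the gene, from RefSeq on GRCm38.p6, with the E-box in capitals. Ppp1r3c lies on the minus strand (chr19:36736605-36736854) and its E-box begins 104 bases before the start. Pfkfb3 is also on the minus strand (chr2:11502091-11502340, one of its annotated starts) with the E-box 53 bases before it. Bnip3 (chr7:138909507-138909756, minus strand) has it 108 bases before the start, and Nr0b2 (chr4:133553126-133553375, plus strand) 195 bases before.
Ppp1r3c: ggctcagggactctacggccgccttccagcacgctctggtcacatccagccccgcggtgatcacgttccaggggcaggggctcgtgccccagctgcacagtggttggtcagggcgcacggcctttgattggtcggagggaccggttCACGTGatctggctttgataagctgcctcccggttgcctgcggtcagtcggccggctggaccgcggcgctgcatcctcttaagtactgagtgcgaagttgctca
Pfkfb3: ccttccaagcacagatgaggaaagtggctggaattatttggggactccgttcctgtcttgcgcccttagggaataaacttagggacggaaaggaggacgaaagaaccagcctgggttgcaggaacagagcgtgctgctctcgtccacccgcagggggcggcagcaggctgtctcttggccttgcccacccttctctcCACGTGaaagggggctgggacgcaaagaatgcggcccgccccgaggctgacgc
Bnip3: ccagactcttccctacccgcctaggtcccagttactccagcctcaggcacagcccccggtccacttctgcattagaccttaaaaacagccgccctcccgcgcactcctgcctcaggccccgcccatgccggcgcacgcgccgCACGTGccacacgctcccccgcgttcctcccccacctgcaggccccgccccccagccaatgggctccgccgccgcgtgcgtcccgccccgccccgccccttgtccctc
Nr0b2: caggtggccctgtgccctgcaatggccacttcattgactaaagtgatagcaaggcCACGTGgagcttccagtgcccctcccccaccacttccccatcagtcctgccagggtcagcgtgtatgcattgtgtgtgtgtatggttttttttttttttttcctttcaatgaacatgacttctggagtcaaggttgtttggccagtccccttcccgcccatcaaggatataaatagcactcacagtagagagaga
Ppp1r3c (-2.17) and Nr0b2 (-1.22) were lower and Pfkfb3 (1.57) and Bnip3 (1.33) higher in the Dbp-high livers. The windows searched ran from 250 bases before to 50 after each start, on both strands, for the E-box CACGTG, the D-box core TTATGTAA or TTACGTAA and the ROR element core ANTNGGTCA, each counted whether or not its match overlapped that of another. An E-box was present for 9.52% of the 15561 tested genes with a promoter entry. With the clock list left out, it was present for 15.7% of 733 genes called higher and 11.2% of 1314 called lower, and for 10 of 25 (40.0%) at least 2-fold higher and 9 of 102 (8.82%) at least 2-fold lower. The D-box core was present for 1.17% of all genes, 1.77% of those called higher and 1.14% of those called lower. The ROR element core was present for 2.32%, 1.64% and 3.42%. Genes have 1 or more annotated starts, which moves these shares, and a match is a run of letters and not a site shown to be bound.

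Haem and iron genes were led by Alas1, the rate-limiting enzyme of haem synthesis in liver. Alas1 was 11.89, 11.76, 11.92, 12.21 and 12.14 in the Dbp-high livers and 8.46, 9.64, 8.65, 11.00 and 10.41 in the Dbp-low livers. The Dbp-high livers lay within a narrow range, and among the Dbp-low livers the 2 of NML-KO were above the 3 of WT. The difference was 2.15 ± 0.32 (4.43-fold). Of 14 haem genes, 2 were called higher and 3 lower (35.7%), with a median of 0.00. The other higher one was Blvra, biliverdin reductase (0.56 ± 0.08), and the lower ones were the synthesis enzymes Ppox (-0.50 ± 0.09) and Uros (-0.25) and the haem oxygenase Hmox2 (-0.42). That count of 5 was 3 without NML-KO 5. In iron regulation, 1 of 17 members was called higher and 4 lower (29.4%), with a median of 0.03. Hjv, the coreceptor through which BMP signals raise hepcidin, was 10.06, 9.89, 9.44, 9.52 and 9.94 against 11.08, 11.10, 11.07, 10.63 and 10.85, and it was lower by 2.15-fold (-1.11 ± 0.10). Hamp, which encodes hepcidin, was at 1.06 ± 0.81 with overlapping groups and was not called. The transferrin receptor Tfrc (-0.67 ± 0.18) lost its call with WT 1, WT 2, WT 3, WT 4, NML-KO 2 or NML-KO 5 left out, and the iron sensor Ireb2 (0.54 ± 0.12) with WT 2 or NML-KO 5 left out. The count of 5 iron genes became 2 without NML-KO 5 and 3 without WT 1, WT 3 or NML-KO 2.

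The acute phase genes, which hepatocytes switch on in inflammation, were lower in the Dbp-high livers. Of 29 members, 12 were called lower and 1 higher (44.8%), with a median of -0.55. The median was -0.28 within WT and -0.78 within NML-KO. Their mean level was 9.19 to 9.43 in the Dbp-high livers and 9.57, 9.75, 9.94, 11.09 and 9.99 in the Dbp-low livers, with no overlap and with NML-KO 4 far above the rest. Apcs, serum amyloid P and a classical acute phase protein of mice, was 7.59, 7.72, 7.89, 7.32 and 7.99 in the Dbp-high livers and 9.64, 10.07, 10.86, 10.83 and 9.26 in the Dbp-low livers. The gap between the groups held in both genotypes, and the difference was -2.42 ± 0.32. Saa2, a serum amyloid A gene, was 6.0, 6.58, 6.33, 5.33 and 6.64 against 7.93, 8.49, 8.81, 13.03 and 11.05. Every Dbp-low liver was above every Dbp-high liver, and the 2 NML-KO livers of the Dbp-low group were the highest of all. Its difference was -4.03 ± 0.72, with -2.12 within WT and -5.94 within NML-KO.

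Saa1 and the siderophore binder Lcn2 had the same shape, at -2.65 ± 0.72 and -2.78 ± 0.80, and were highest in NML-KO 4, where they reached 10.83 and 12.77. Without NML-KO 4 the differences were the smallest of those with 1 liver left out, -1.74 for Saa1 and -1.67 for Lcn2, and both remained called. The call of Saa1 was lost without WT 4, WT 5, NML-KO 1, NML-KO 2, NML-KO 3 or NML-KO 5, and that of Lcn2 without these or WT 1. Saa genes are near-identical copies, so the probe sets of Saa1 and Saa2 may share signal. Lrg1, a leucine-rich glycoprotein of the acute phase outside the list, was at -2.31 ± 0.28. Of the list, Il6ra, the receptor through which interleukin 6 starts this response, was the one higher member, at 0.80 ± 0.12. The Kupffer cell markers given above were also highest in NML-KO 4, and 13 of the 14 had a difference below 0. Their median difference was -0.54, with -0.39 within WT and -0.84 within NML-KO. The mean level of these markers overlapped between the groups. It was 7.50 to 8.35 in the Dbp-high and 8.15 to 8.91 in the Dbp-low livers. The part of these markers in the acute phase result was not tested.

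Interferon-stimulated genes had 0 members called higher and 7 of 26 lower (26.9%), with a median of -0.37. Irf7, the regulator that amplifies the interferon response (-0.85 ± 0.17), the antiviral enzyme Rsad2 (-0.75 ± 0.14) and the RNA binder Ifit1 (-0.66 ± 0.12) did not overlap between groups. The count of called members was 3 without WT 4 or NML-KO 2, 4 without WT 5 or NML-KO 4, and 2 without WT 2 and NML-KO 4 together. By mean level the Dbp-high livers ran from 6.76 to 7.40 and the Dbp-low livers from 7.29 to 7.62, an overlap that came from WT 2.

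Heat shock genes had 0 members called higher and 7 of 19 lower (36.8%), with a median of -0.14. Hspb1, a small heat shock protein, was 7.53, 7.54, 6.67, 7.43 and 7.38 in the Dbp-high livers and 8.38, 9.18, 8.68, 8.63 and 8.74 in the Dbp-low livers, a difference of -1.37 ± 0.18. Hsp90aa1, the inducible cytosolic HSP90, was lower by 1.00 ± 0.12 on the log2 scale with no overlap. Its cochaperone Chordc1, at -0.77 ± 0.18, lost its call without WT 1 or NML-KO 5. The inducible Hspa1a and its relative Hspa8 had differences of 0.01 and 0.05, and the cold-inducible Cirbp and Rbm3 of 0.37 ± 0.12 and 0.41 ± 0.14, none of them called. In the list of endoplasmic reticulum stress, 2 of 26 members were called higher and 5 lower (26.9%), with a median of -0.18. Sdf2l1, a chaperone cofactor of the reticulum (-1.05 ± 0.20), and Atf5, a factor of the stress response (-0.82 ± 0.12), were lower. Herpud1, a component of protein degradation from the reticulum, was higher at 0.69 ± 0.16. Hspa5, the central chaperone of this response, was at -0.10 and was not called.

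The NRF2 list of antioxidant genes had 1 member called higher and 3 lower of 17 (23.5%), with a median of 0.02. Osgin1, an oxidative stress-induced growth inhibitor, was 9.63, 9.57, 8.44, 8.21 and 9.64 against 11.21, 10.89, 11.65, 10.20 and 10.08, a difference of -1.51 ± 0.26 with no overlap. Gclc, which makes the first bond of glutathione, was at -0.63 ± 0.10, and Pgd, of the pentose phosphate pathway, at -0.79 ± 0.16. Nqo1, a common NRF2 target, was at 0.27 and was not called. The NAD and sirtuin list had 3 members called higher and 3 lower of 16 (37.5%), with a median of -0.04. The higher ones were Nampt, the rate-limiting enzyme of NAD salvage (0.88 ± 0.20), and the sirtuins Sirt3 (0.81 ± 0.13) and Sirt1 (0.50). Nampt lost its call without WT 2 or NML-KO 4. The lower ones were Nmnat1, the nuclear enzyme that completes NAD (-0.78 ± 0.14), Sirt2 (-0.54) and Sirt7 (-0.30).

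Smaller counts were found for further lists. For xenobiotic metabolism the count was 1 higher and 2 lower of 25 (12% called, close to the background of 12.9%). Those were the detoxifying enzymes Cyp2c55 (-0.87 ± 0.20) and Cyp3a13 (-0.64 ± 0.13), which were lower, and Cyp2e1 (0.20 ± 0.05), which was higher and lost its call without WT 3, WT 4, NML-KO 4 or NML-KO 5. Cyp2c55 lost its call without WT 1 or NML-KO 5, and the list then had 2 and 1 called members. Autophagy had 3 of 18 called higher (16.7%), of which Bnip3, a receptor for removal of mitochondria, was 11.62, 11.64, 11.20, 11.16 and 11.45 against 10.02, 10.26, 10.44, 9.89 and 10.12 (1.33 ± 0.09). The other 2, Ulk1 (0.39 ± 0.11) and Atg7 (0.38 ± 0.08), start and extend the autophagosome. Ulk1 kept its call only without WT 2, WT 5 or NML-KO 2, Atg7 lost it without WT 1 or NML-KO 5, and the list had 1 called member without WT 1 or NML-KO 5 and 5 without WT 2. Polyamine genes had 2 of 7 called higher (28.6%) and a median of -0.06. The called members were Azin1 (0.64 ± 0.11) and Azin2 (0.31), which protect ornithine decarboxylase from breakdown. Oaz2, an antizyme that promotes that breakdown, was at -0.42 ± 0.14 with groups that did not overlap, and was not called except without NML-KO 2 (-0.32). The count was 1 of 7 without WT 2 or NML-KO 5. In the urea cycle and amino acid list, 2 of 21 were called higher and 3 lower (23.8% called), with Gpt, the alanine transaminase, at 0.51 ± 0.08, Kmo, of kynurenine breakdown, at 0.49 ± 0.05 and Haao, of the same pathway, at -0.47 ± 0.06. That count was 8 without NML-KO 4.

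The glucocorticoid list had 0 higher and 1 lower of 14 (7.14% called) and immediate early genes 0 and 1 of 19 (5.26%). Cell division had 0 and 1 of 27 (3.7%) and p53 targets 0 and 1 of 14 (7.14%), beside 12.9% of all genes. With 1 liver left out each of these counts stayed between 0 and 2: the glucocorticoid count was 2 without WT 1, WT 2 or NML-KO 1, the cell division count 2 without NML-KO 2 or NML-KO 5, and the immediate early count 2 without NML-KO 1 or NML-KO 3 and 0 without WT 1, WT 4 or NML-KO 4. Of their members, Fkbp5, a glucocorticoid target, was at 0.59 ± 0.18, Egr1, an immediate early factor, at -1.02 ± 0.47 and Dusp1, a phosphatase of the same response, at -0.86 ± 0.35, none of them called. Mcm4, of the replication helicase, was the called member for cell division (-0.60 ± 0.12). Fas, a death receptor and the p53 target called, was at -0.44 ± 0.13, with its call kept only without WT 2 or WT 3.

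Zonation genes, which hepatocytes express near the portal or the central vein, had 2 called higher and 2 lower of 18 pericentral genes (22.2% called) and 0 higher and 1 lower of 12 periportal genes (8.33%), beside 12.9% of all genes. Slc1a2, a glutamate transporter of pericentral cells, was higher by 0.80 ± 0.06. The pericentral Slc1a4 (-0.50 ± 0.12) and Lect2 (-0.48 ± 0.14) were lower. Slc1a4 lost its call without WT 1, WT 4, NML-KO 4 or NML-KO 5, and Lect2 kept it only without WT 4, NML-KO 3 or NML-KO 4. The pericentral count of 4 was 1 without NML-KO 5 and 2 without WT 1, WT 3 or WT 4. Of 13 genes that male livers express more, 2 were called lower (15.4%), Elovl3 above and the complement gene C6 (-0.79). Of 10 female-biased genes 1 was called higher (10%), Fmo2 (0.76 ± 0.20). Fmo2 kept its call only without WT 1, WT 4, NML-KO 2 or NML-KO 4. Both shares were close to the 12.9% of all genes. The male-biased median was -0.39, with -0.82 within WT and 0.07 within NML-KO. WT 2, 1 of the 2 Dbp-high WT livers, stood apart in this list with a mean level of 9.67 against 10.47 to 11.45 in the other livers, and without it the median was -0.02. Without WT 3 it was -0.22 and without WT 5 -0.21. The list had 4 called members without NML-KO 4 and 1 without NML-KO 5. Xist, expressed from the inactive X, was at 4.6 to 4.99 and the Y-linked Eif2s3y at 8.08 to 8.54 in the 10 livers, and 0 of 4 sex chromosome genes were called.

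**Figure D3:**
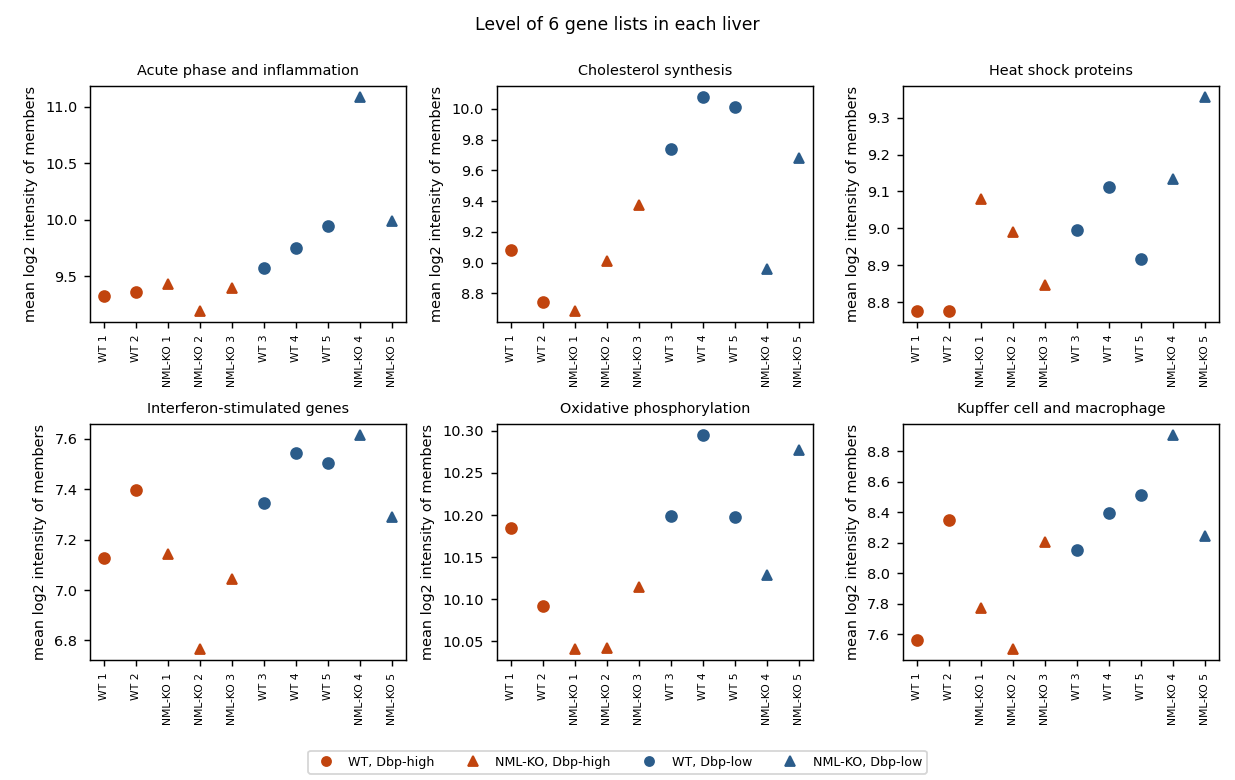
Mean log2 intensity over the measured members (vertical axes) of 6 gene lists in each of the 10 livers, Dbp-high in red and Dbp-low in blue, circles for WT and triangles for NML-KO. NML-KO 4 is highest for the acute phase (11.09) and Kupffer cell (8.91) lists and lowest of the Dbp-low livers for cholesterol synthesis (8.96).

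Further genes lay outside every list. Upp2, a uridine phosphorylase of liver, was 11.91, 12.35, 11.78, 12.12 and 12.28 in the Dbp-high livers and 9.83, 10.21, 10.11, 10.32 and 10.18 in the Dbp-low livers, a 3.86-fold difference (1.95 ± 0.13). Rgs16, an inhibitor of G protein signalling that follows feeding cycles in liver, was 7.74, 8.66, 8.23, 9.87 and 10.32 against 6.34, 7.06, 6.52, 6.0 and 6.56. Its Dbp-high values spread more widely than its Dbp-low values, and the difference was 2.38 ± 0.46. Nrg4, a hormone of the EGF family, was higher by 1.63 ± 0.15. Tubb2a, a beta tubulin, was lower by 4.29-fold (-2.10 ± 0.22), and Loxl4, a lysyl oxidase of the matrix, by 4.22-fold (-2.08 ± 0.13), with no overlap in either.

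A larger share of small structural RNAs than of messenger RNAs was called, and all but 1 of those were higher in the Dbp-high livers. This class was singled out after its values had been seen. Small nucleolar RNAs (snoRNAs) guide the chemical modification of ribosomal RNA, and most are cut from introns of host genes. Of 53 snoRNAs measured, 35 were called higher and 0 lower, so that 66.0% were called, against 13.2% of protein-coding genes, 6.52% of long non-coding RNAs and 4.38% of microRNA genes. The mean level of the 53 was 7.80, 7.71, 7.62, 7.81 and 7.77 in the Dbp-high livers and 6.66, 6.68, 6.59, 6.68 and 6.74 in the Dbp-low livers. The groups did not overlap, with the Dbp-high values above, for 34 of the 53, beside 5.04% of all genes. The median difference was 0.64, with 0.63 within WT and 0.69 within NML-KO. Snord118, the U8 snoRNA of large subunit processing, was 12.18, 11.19, 9.34, 11.78 and 10.25 in the Dbp-high livers and 4.89, 4.79, 4.84, 5.08 and 4.82 in the Dbp-low livers. Its Dbp-low values lay near the dimmest signals on the arrays, and the difference of 6.17 ± 0.45 was the largest of the class. Snord57 was higher by 3.49 ± 0.13, Snora44 by 2.95 ± 0.20 and Snora69 by 2.80 ± 0.12. Both families took part, with 19 of 30 box C/D snoRNAs and 15 of 20 box H/ACA snoRNAs called.

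The differences of the snoRNAs were unlike those of the genes that hold them. RefSeq places 31 of them inside the spans of 27 measured genes. The match was by position only, without regard to strand, so some of these genes may not be the true host. A host that was not measured would be missed. These 31 had a median difference of 0.61 and 20 were called higher, whereas the 27 host genes had a median of 0.03, with 2 called higher and 5 lower. Snora3 was higher by 2.48 while its host Rpl27a, a ribosomal protein gene, was lower (-0.66 ± 0.10). Snord47 was higher by 0.72 while Gas5, a non-coding host gene, was lower (-0.33 ± 0.08). Snord15b was higher by 2.13 and its host Rps3 by 0.41 ± 0.09. Array probes for a snoRNA can also pick up the host's intron, and the 2 sources cannot be told apart here.

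**Figure D4:**
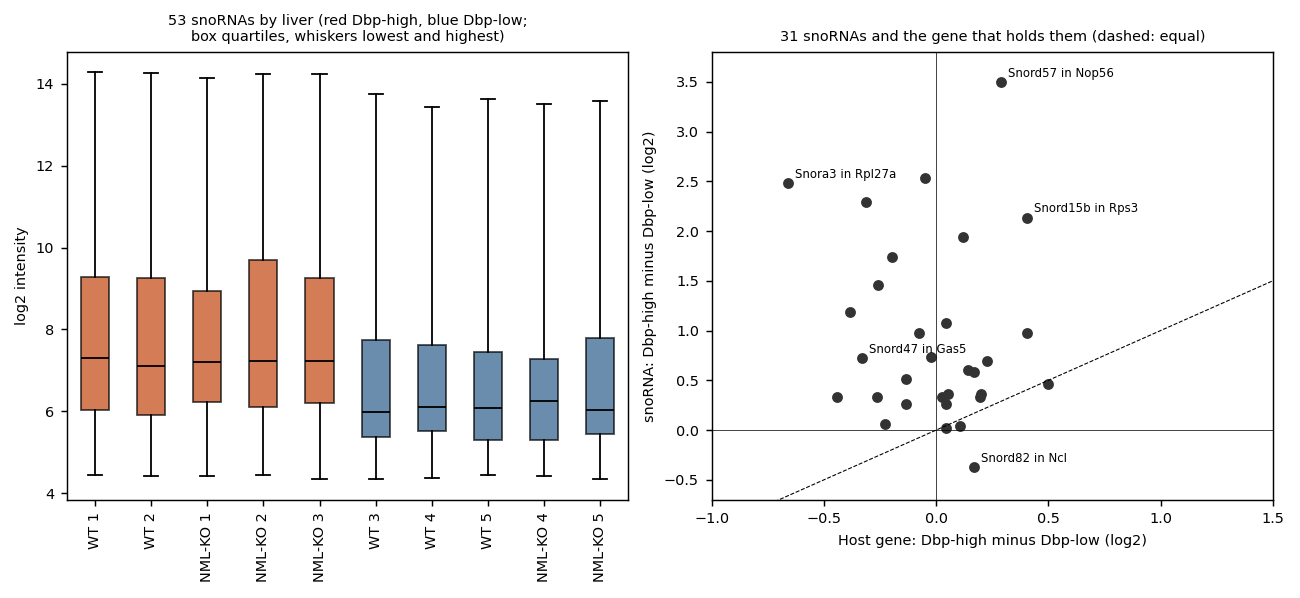
Left, log2 intensity of the 53 measured snoRNAs in each liver, boxes at the quartiles with the median and whiskers to the lowest and highest, Dbp-high in red and Dbp-low in blue. Right, the difference between Dbp-high and Dbp-low livers (log2) of 31 snoRNAs against that of the gene that holds them, where most points lie above the dashed line of equality and the host median is 0.03.

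Other small non-coding RNAs pointed the same way. Of 18 further structural RNAs, 10 were called higher and 1 lower. They include Snord73b, a snoRNA by name that is listed under another RNA type and so is not among the 53. Its values overlapped, at 7.30 to 8.75 in the Dbp-high and 8.04 to 8.56 in the Dbp-low livers. Rny3, a Y RNA bound by the Ro protein, was 12.93, 13.06, 12.99, 13.44 and 13.24 against 10.51, 10.39, 10.24, 11.05 and 10.47, a 5.81-fold difference (2.54 ± 0.12). Vaultrc5, a vault RNA that is not one of the 18, was 11.18, 9.20, 9.07, 9.97 and 9.59 against 6.15, 6.72, 6.05, 6.63 and 6.38 (3.46 ± 0.36). The RNase P RNA Rpph1 (1.15 ± 0.20), the related Rprl2 (1.81 ± 0.16), the minor spliceosomal Rnu12 (0.97 ± 0.16), the telomerase RNA Terc (0.92 ± 0.10) and Rn7sk (0.31 ± 0.04), which restrains transcription elongation, were higher. The exception was Scarna13, at -0.90 ± 0.16. The part of this difference in small RNAs in the results for other genes was not tested, and a batch of extraction or labelling, had one coincided with the Dbp groups, cannot be told apart from them.

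Ribosomal protein and respiratory chain genes, many of them with short transcripts, had called members in both directions. Of 54 cytosolic ribosomal protein genes, 4 were called higher and 12 lower (29.6%), with a median of -0.05 (0.09 within WT and -0.26 within NML-KO). Rps18, of the small subunit, was 11.95, 11.97, 11.62, 11.80 and 11.71 in the Dbp-high livers and 10.96, 11.05, 10.91, 10.96 and 11.04 in the Dbp-low livers (0.85 ± 0.07). Rpl36a, of the large subunit, was 10.60, 10.61, 10.30, 10.49 and 10.44 against 11.48, 11.32, 11.48, 11.33 and 11.50 (-0.91 ± 0.07). Neither gene overlapped between groups, so single members of one complex stood apart in opposite directions. Rpl21 was lower by 0.80 ± 0.06 on the log2 scale. Ribosomal protein genes have many processed copies, which probe sets may also detect. In the list of RNA polymerase I and ribosome assembly, 5 of 50 members were called higher and 2 lower, with a median of 0.06. The list had 14% called, close to the background of 12.9%. It included Taf1a, of the polymerase I selectivity factor (0.62 ± 0.13), Znrd1, a polymerase I subunit (-0.62 ± 0.08), and Mybbp1a (0.33 ± 0.09), a nucleolar protein that kept its call only without WT 4 or NML-KO 2. That count was 3 without WT 1 or WT 5 and 4 without WT 3 or NML-KO 5. The 72 genes of oxidative phosphorylation had 7 called higher and 22 lower (40.3% called), with a median of -0.04. Cox7b, of complex IV (-0.83 ± 0.08), and Atp5j2, of the ATP synthase (-0.82 ± 0.08), were lower, and Ndufb3, of complex I, was higher (0.93 ± 0.13).

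Whether the Dbp-high minus Dbp-low difference was itself different in NML-KO and WT is not fixed by the split, and it was tested as an interaction in a limma fit with 4 groups. Of 19935 genes, 0 were called (0%) at an adjusted p below 0.05, the smallest adjusted p being 0.717. At an unadjusted p below 0.05 there were 1293 genes (6.49%). Groups of 2 or 3 livers limit this test, with a median SE of 0.16 for the interaction against 0.08 for the main contrast. Without WT 1 the test called 11 genes and without NML-KO 5 it called 13. It called 0 without any of the other livers left out singly.

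The 5 genes with the smallest p in each direction are described without a call, all with a limma adjusted p of 0.717. Per1, a repressor of the clock, was 8.51 and 8.65 in the Dbp-high livers of WT and 8.20, 8.50 and 8.14 in those of NML-KO, against 5.94, 6.26 and 6.10 in the Dbp-low livers of WT and 6.99 and 7.22 in those of NML-KO. The difference was 2.48 within WT and 1.18 within NML-KO, an interaction of -1.31 ± 0.19. Brd1, a chromatin scaffold, Zfand2b, a factor of protein quality control, Fmnl1, a formin, and Uvssa, of DNA repair, had interactions between -0.75 and -0.49.

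On the positive side, Cyp2c54, a cytochrome P450, had -0.72 within WT and 0.54 within NML-KO, an interaction of 1.27 ± 0.22. Nox4, an NADPH oxidase, was 8.36 and 8.76 in the Dbp-high WT livers and 8.78, 8.94 and 8.49 in the Dbp-low WT livers. In NML-KO it was 8.67, 8.65 and 8.64 in the Dbp-high against 7.10 and 7.62 in the Dbp-low livers. The 2 Dbp-low NML-KO livers were thus the lowest of all 10, with an interaction of 1.47 ± 0.26. P2ry2, a nucleotide receptor, had the same arrangement, 0.37 within WT and 1.56 within NML-KO (1.19 ± 0.21). Ppp2r2a, a regulatory subunit of protein phosphatase 2A, and Lingo4 had interactions of 0.54 ± 0.09 and 0.71 ± 0.13. Among genes described above, Saa2 had an interaction of -3.82 ± 0.82 and Alas1 of -1.52 ± 0.45, neither of them called.

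**Figure D5:**
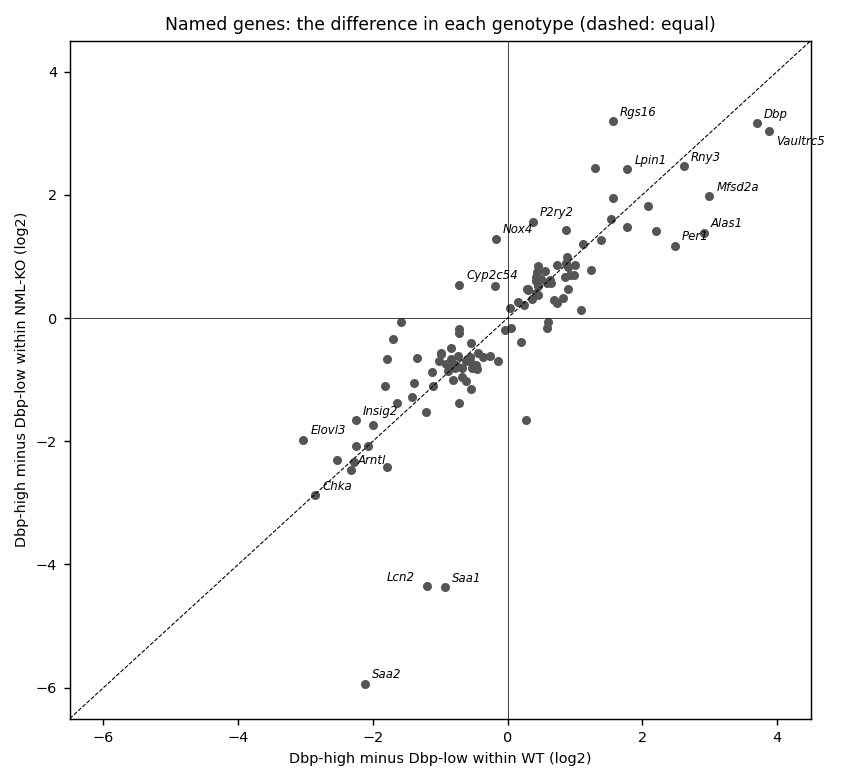
Difference between Dbp-high and Dbp-low livers (log2) within NML-KO (vertical axis) against that within WT (horizontal axis) for the 114 named genes, with a dashed line where they are equal. Most points lie in the quadrants of equal sign, and Saa2 lies farthest below the line, at -2.12 within WT and -5.94 within NML-KO.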

How the data were processed

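Total RNA of 10 mouse livers was labelled with the Affymetrix whole-transcript terminal kit, as the labels' protocols state. One table that the authors deposited holds linear intensity values of 28815 probe sets (18.37 to 29834, array medians 62.5 to 66.7). No source used here gives its background correction or normalization. The submitters' processing notes name the build mm 8. For each gene the log2 of the deposited intensity was taken without further scaling. Probe sets were named through the platform table and RefSeq GRCm38.p6: 21780 had 1 symbol (21689 updated by gene ID, 91 as listed), 1605 had several and 5430 had none. Of 998 genes with several probe sets, the one with the highest mean was used. The number of arrays limits the precision.

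Dbp groups and genotype entered limma 3.58.1 (R 4.3.3, lmFit and eBayes), with Benjamini-Hochberg adjustment over 19935 genes, after testing on simulated data. The members and lists were chosen with earlier results of these data known. The text names Dbp, Arntl and Rrp8, the 10 largest non-overlapping differences in each direction outside the clock (leaving out predicted genes, olfactory and vomeronasal receptors, microRNAs, snoRNAs and 5S RNAs by name, although some snoRNAs differed more), up to 3 called members of each list (otherwise the 2 largest), the 5 smallest interaction p in each direction, and values apart from their group. Other called members, well-known members not called, markers and small RNAs were named after their values were seen. Alternatives were quantile normalization, an offset of 16, probe set means, a filter on dim genes, other priors, array weights, no genotype term, the replicate number as a block, other thresholds, and livers left out.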

Additional observations from a re-analysis of the deposited data

Results flagged for a closer look

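Among 114 named genes in the 2 Dbp groups of 5 livers (228 groups of values), 8 groups had 1 liver far from the others, with a gap to its nearest neighbour above 0.71 of the range of the group (Dixon's criterion). Chance alone flags about 1 in 20 groups. Values are log2 intensities.

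In the Dbp-low livers, NML-KO 4 was low for Elovl3 at 12.03, with the nearest liver at 13.14, and for Cyp2e1 at 13.78, with the nearest at 13.92. WT 4 was high for Mybbp1a at 8.26, the nearest being 8.03. In the Dbp-high livers, NML-KO 1 was low for the heat shock gene Hspb1 (6.67 against 7.38) and for the transaminase Gpt (9.37 against 9.64). WT 1 was high for the complex I gene Ndufb3 (8.19 against 7.67) and low for the glutamate transporter Slc1a2 (10.20 against 10.47). WT 2 was low for Hsd3b5, a male-biased steroid dehydrogenase, at 8.19 against 10.44 in the nearest liver. WT 2 is also the liver with the highest adipocyte markers.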

How the results depend on the processing

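The groups come from these livers, so no setting gives independent support. Total, higher and lower calls were 1143, 352 and 791 at an adjusted p below 0.01, and 196, 70 and 126 with a fold of at least 2. With 1 liver left out they ranged from 1625 to 2557, 571 to 998 and 1054 to 1615, with all 3 minima without NML-KO 5. Without both WT 2 and NML-KO 4, a pair chosen after seeing the data, 609 were higher. Interaction calls ranged from 0 to 13, with 11 without WT 1, 13 without NML-KO 5 and 0 in the fits with no liver left out. With the replicate block, 2 genes were called, 2 higher and 0 lower. Under it Fdps was at 0.083, Herpud1 at -0.11 and Lect2 at 0.0067, the only called named differences that changed sign. Among named differences not called, Egr1, Pmaip1, Uty and Cyp2c54 changed sign under this block, Cyp2c54 also after quantile normalization and without WT 1, and Rrp8 with array weights, without NML-KO 4 and without the pair. By construction this fit rests on number 3, the only number with a liver in each Dbp group (WT 3 and NML-KO 3), the other numbers giving only the genotype term. Whether the numbers pair the livers could not be settled. With genotype and Dbp group means removed, same-numbered livers correlated at 0.159, -0.106, -0.315, -0.00699 and -0.160. Each of those means comes from 2 or 3 livers. Removing them also removes any pairing shared through the Dbp group, so these values cannot decide it. With only genotype means removed the values were 0.438, 0.264, -0.416, 0.348 and 0.537, where number 3 is again the one that spans the Dbp groups. These values hold the Dbp difference itself, so they cannot decide it either. By root mean square distance, the array of WT 2 lay nearer to NML-KO 3 (0.2667) than to NML-KO 2 (0.3208). The cause of the other shifts was not tested. Scaling, prior, weight, probe set, dim gene and offset settings kept all 3 counts within 1.5 times the reported ones. Among them the median of all genes was -0.031 with dim genes left out and 0.0087 after quantile normalization, beside 0.024 as reported. Dim genes near the floor of the arrays limit what small folds can show.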
